A study of Mus musculus with 9 samples.

Results

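The transcripts described here encode the proteins that store, import, export and sense iron in mouse bone marrow (BM)-derived macrophages (Mϕs). The genes were chosen by symbol and number 10: the ferritin subunits Fth1 and Ftl1, the ferritin receptor of autophagy Ncoa4, the iron exporter Slc40a1, the importers Tfrc, Slc11a1 and Slc11a2, the heme-degrading enzyme Hmox1, and the iron sensors Aco1 and Ireb2. All 10 have a row among the 53379 genes of the deposited table, and all 10 were among the 12824 genes that passed the filter on low values. BM cells of C57BL/6 mice were cultured with 10 ng/ml MCSF (CSF-1), under which marrow progenitors become Mϕs, for 3 days. For the next 4 days the cultures received MCSF alone (Control), MCSF with 10 ng/ml IL-4 (IL-4), or MCSF with 100 ng/ml IL-6 (IL-6), as the labels give the doses. The IL-6 dose is misprinted in the labels and was read as this value, which the methods also give. The methods of the study give the same times but another dose of IL-4, and its legends give other doses and a shorter time. RNA of each condition was sequenced from 3 mice, which gives 9 libraries numbered by mouse, #1 to #3. The comparisons ask how Mϕs polarized by IL-6 differ from those polarized by IL-4 and from Mϕs kept in MCSF.

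Mϕs recycle the iron of aged red blood cells and hold or release it. Iron bound to transferrin enters through the transferrin receptor encoded by Tfrc. It leaves the endosome through the proton-coupled transporter encoded by Slc11a2, while the related transporter of Slc11a1 moves metal out of the phagosome. Iron not in use is caged in ferritin, which NCOA4 delivers to lysosomes when iron is needed, and the surplus leaves the cell through ferroportin, the product of Slc40a1 and the only known iron exporter of mammals. The iron regulatory proteins encoded by Aco1 and Ireb2 bind hairpins called iron-responsive elements in iron-poor cells. A hairpin in the 5′ UTR blocks translation when bound, and hairpins in the 3′ UTR of Tfrc protect that transcript from decay. RNA levels therefore do not give the protein levels of ferritin and ferroportin.

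The hairpins are shown because through them iron acts on the transcripts of storage, export and import. They were searched in the annotated UTRs of GENCODE M21 on GRCm38 as a 6-base loop, CAGTG followed by A, C or T. The loop was closed by a stem of 5 base pairs, G-T pairs included, with a C just before the stem. Each is given 5′ to 3′ over 29 bases with the loop in capitals.
Fth1, 5′ UTR, chr19:9982732-9982760, plus strand: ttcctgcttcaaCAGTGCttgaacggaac
Ftl1, 5′ UTR, chr7:45459779-45459807, minus strand: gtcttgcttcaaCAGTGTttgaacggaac
Slc40a1, 5′ UTR, chr1:45925465-45925493, minus strand: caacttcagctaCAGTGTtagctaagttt
Tfrc, 3′ UTR, chr16:32631219-32631247, plus strand: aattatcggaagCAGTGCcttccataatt
Tfrc, 3′ UTR, chr16:32631598-32631626, plus strand: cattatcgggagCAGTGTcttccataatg
Tfrc, 3′ UTR, chr16:32631663-32631691, plus strand: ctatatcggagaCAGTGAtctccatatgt
Tfrc, 3′ UTR, chr16:32631710-32631738, plus strand: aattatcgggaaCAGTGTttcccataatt
The search matched 7 elements in 4 of the 10 members, against a match in a UTR of 123 of 21901 protein-coding genes (0.562%). The members were chosen as iron genes, so setting these shares side by side is no test. The other 6 members held no match to these letters, which says nothing of elements of another form.

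The libraries hold 29988160 to 39909571 fragments, read back from the steps of the low FPKM values (fragments scaled to the exon length of the gene and the total of the library). Between 621 and 807798 fragments stand behind each member in each library. The counting error, taken from the mean number of fragments of each group, is at most 2.25%. It is larger in a library far below its group's mean, such as IL-4 #3 for Ncoa4 with 621 fragments. Socs3, a target of IL-6 signalling, was 35.4-fold higher in IL-6 than in Control Mϕs, and Arg1, a target of IL-4 signalling, was 1809-fold higher in IL-4 than in Control Mϕs. All 8 Mϕ markers examined, among them Csf1r, Adgre1 and Lyz2, were above 0 in each library, while the erythroid list summed to at most 10.4 FPKM. The libraries fall into 2 sets by transcripts of intestinal Paneth and goblet cells, which had 1070 to 1405 fragments in IL-4 #1 and the 3 Control libraries but 3 to 8 in each of the other 5. Since all Control libraries lie in the first set and all IL-6 libraries in the second, the set and the IL-6 condition cannot be told apart. IL-4 #3 stands apart from the other IL-4 libraries along gene length. Its log2 FPKM differed from their mean by a median of 0.30 for genes under 2518 bases of exon and by −0.89 for genes over 5095 bases. Results of the members that rest on IL-4 #3 are given with and without it, except where the set enters the fit. In cultures measured in bulk, fewer cells of a type and less RNA per cell cannot be told apart.

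In Control Mϕs the storage genes were the most abundant members, with a mean FPKM of 19950 ± 4212 (SD, n = 3) for Fth1 and 9848 ± 2128 for Ftl1. The ranges of the 2 genes did not overlap. Hmox1, at 487.1 ± 93.9, and Slc11a1, at 223.5 ± 3.70, came next, followed by Slc40a1 at 134.1 ± 21.9 and Tfrc at 67.4 ± 7.96, with no overlap between neighbours in this order. Aco1 at 22.0 ± 1.41, Slc11a2 at 21.4 ± 1.25 and Ncoa4 at 20.4 ± 5.75 overlapped, and Ireb2 was lowest at 7.71 ± 2.34. In IL-4 Mϕs the order changed in the middle: the mean FPKM of Tfrc, 261.0 ± 139.3, lay above that of Slc11a1, 100.2 ± 11.4, though IL-4 #3 of the former (109.4) and IL-4 #1 of the latter (109.6) met, and Slc40a1, at 10.5 ± 6.64, overlapped with Slc11a2, Ncoa4 and Ireb2. In IL-6 Mϕs Tfrc, at 194.9 FPKM, lay just above Slc11a1, at 172.3 FPKM, and Slc40a1, at 44.4 FPKM, stayed above Aco1, at 20.2 FPKM.

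**Figure D1:**
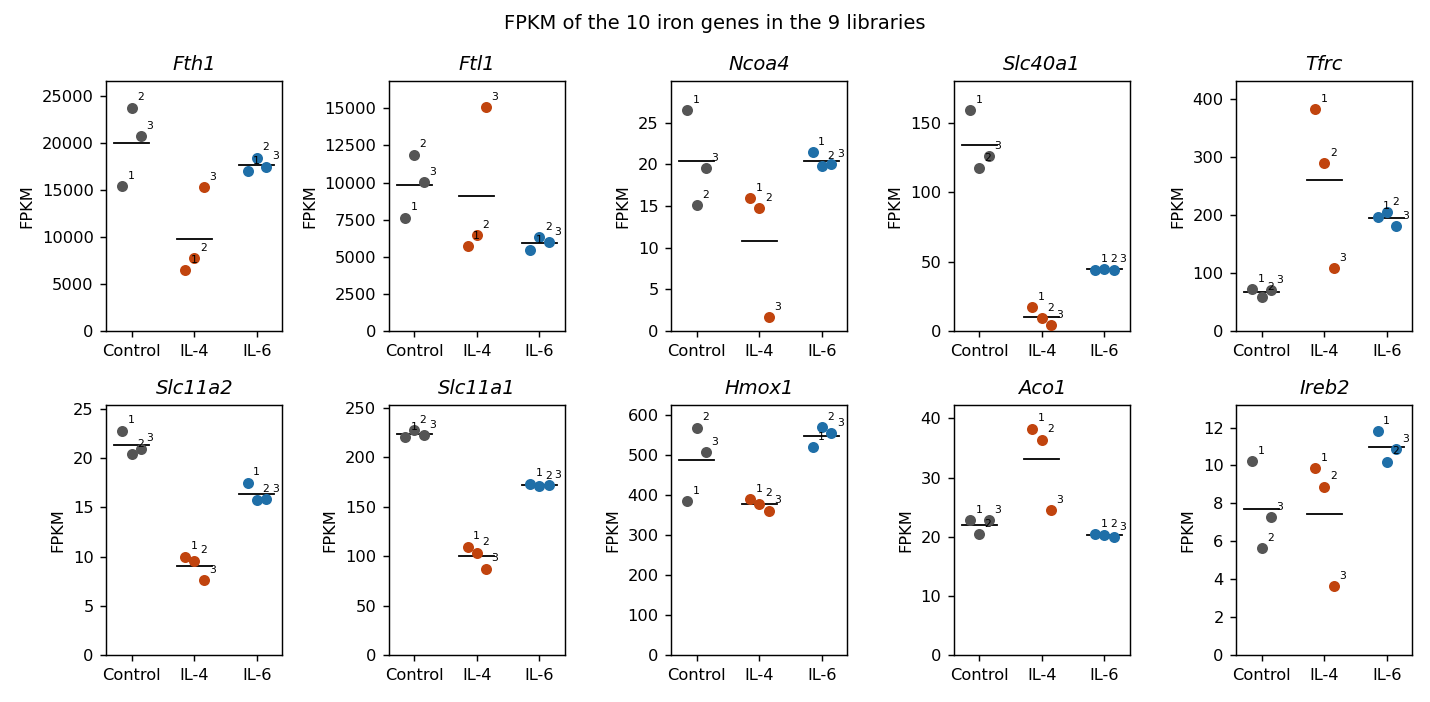
FPKM (y axes, from 0) of the 10 genes in the Control, IL-4 and IL-6 libraries, with a panel per gene, points numbered by mouse and bars at the mean of 3 libraries. Slc40a1 is lowest and Tfrc highest on average in IL-4 Mϕs, Slc11a1 and Slc11a2 step down from Control through IL-6 to IL-4, and IL-4 #3 sits apart from IL-4 #1 and #2 in Fth1, Ftl1, Ncoa4, Tfrc, Aco1 and Ireb2.

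In IL-4 Mϕs the transcripts of the exporter Slc40a1, of the metal transporters Slc11a1 and Slc11a2 and of the ferritin heavy chain Fth1 fell, and that of the transferrin receptor Tfrc rose. In limma's test, 5 of the 10 members were called against Control, with an adjusted p below 0.05 and a change of 1 or more on the log2 scale, 1 higher and 4 lower. Of all tested genes 13.9% were called in this comparison, 5.02% higher and 8.89% lower. At an adjusted p under 0.05 alone, 6 members passed against 24.8% of all genes. The median log2 fold change of the members was −0.73, beside −0.20 over all tested genes.

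Slc40a1, on chromosome 1 (45908068 to 45926523, minus strand), had the largest difference of the 10. Its FPKM was 158.9, 117.5 and 126.1 in Control #1 to #3, and 17.5, 9.51 and 4.33 in IL-4 #1 to #3. The groups did not overlap, and the IL-4 mean was 7.79% of the Control mean. The log2 fold change was −3.87 (SE 0.422, limma adjusted p = 0.000398), a 12.8-fold difference of means. It was called in each of the 9 fits that leave out a library, with log2 fold changes of −4.35 to −3.36. Within the first set of libraries, the FPKM of IL-4 #1 was 13.1% of the Control mean. A fit that included the set gave −2.92 on the log2 scale (adjusted p = 0.00393), and removal of each library's trend with gene length gave −3.54 (adjusted p = 1.38e-05).

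Tfrc, the route for transferrin-bound iron on chromosome 16 (32608920 to 32632794, plus strand), moved the opposite way. Its FPKM was 72.8, 58.2 and 71.1 in Control #1 to #3. In IL-4 #1 to #3 it was 383.3, 290.2 and 109.4. Each IL-4 library lay above each Control library, but IL-4 #3 was far below the other IL-4 libraries. The log2 fold change was 1.78 (SE 0.402, limma adjusted p = 0.0139), a 3.87-fold difference of means, and without IL-4 #3 it was 2.31 (adjusted p = 2.31e-05). The call was lost without Control #2 (1.68, adjusted p = 0.0519) and when the fit held only the groups compared (adjusted p = 0.0559). A list of 12 cell cycle genes was ordered in the IL-4 libraries as Tfrc was, with summed FPKM of 125.1, 93.4 and 43.2 in IL-4 #1 to #3 against 45.1 to 60.0 in the Control libraries. The median log2 fold change of the 12 against Control was 0.61, and 0 of the 12 were called. The part of proliferation in the level of Tfrc was not tested, nor that of the gene-length shift of IL-4 #3 in this shared order.

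Slc11a1 (NRAMP1, chromosome 1, 74375195 to 74386062, plus strand) and Slc11a2 (DMT1, chromosome 15, 100387898 to 100425072, minus strand) varied little between mice. The FPKM of Slc11a1 was 220.3, 227.6 and 222.7 in Control #1 to #3 and 109.6, 103.5 and 87.5 in IL-4 #1 to #3, a log2 fold change of −1.16 (SE 0.114, limma adjusted p = 0.000214). That of Slc11a2 was 22.8, 20.4 and 20.98 in Control #1 to #3 and 9.99, 9.60 and 7.63 in IL-4 #1 to #3, a log2 fold change of −1.24 (SE 0.131, adjusted p = 0.000319). Neither gene had overlapping groups, and both were called in each of the 9 fits that leave out a library. Both lie near the limit of 2-fold. After removal of the trend with gene length their log2 fold changes were −0.99 (adjusted p = 3.9e-05) and −0.95 (adjusted p = 0.000407), and after rescaling libraries by their median ratio that of Slc11a1 was −0.96 (adjusted p = 0.000467), so the adjusted p passed while the fold did not.

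Fth1 encodes the ferroxidase subunit of ferritin (chromosome 19, 9980598 to 9985098, plus strand). Its FPKM was 15408, 23727 and 20715 in Control #1 to #3, and 6462, 7723 and 15315 in IL-4 #1 to #3. The groups did not overlap, though IL-4 #3 lay just below Control #1. The log2 fold change was −1.10 (SE 0.317, limma adjusted p = 0.0365). The call was kept without Control #1 or IL-4 #3, and lost without Control #2 (−0.97, adjusted p = 0.115), Control #3 (−1.06, 0.11), IL-4 #1 (−0.85, 0.0834), IL-4 #2 (−0.98, 0.105), IL-6 #1 (−1.10, 0.0619), IL-6 #2 (−1.10, 0.0638) or IL-6 #3 (−1.10, 0.064). Without IL-4 #3 the log2 fold change was −1.47 (adjusted p = 0.000708), and with the gene-length trend removed −1.07 (adjusted p = 0.00568). It was −0.90 (adjusted p = 0.16) after rescaling by the median ratio.

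Ftl1, the light subunit that helps iron nucleate in the ferritin core (chromosome 7, 45457944 to 45459884, minus strand), had FPKM of 7639, 11884 and 10021 in Control #1 to #3 and 5728, 6448 and 15105 in IL-4 #1 to #3. IL-4 #1 and #2 lay below the Control libraries and IL-4 #3 above them. The log2 fold change was −0.24 (SE 0.355, limma adjusted p = 0.659), and −0.67 (adjusted p = 0.0243) without IL-4 #3. That was the only pass on p among the 9 fits that leave out a library. The level of Ftl1 is uncertain because 58.4% of its 50-base stretches of exon also occur in other genes, led by its pseudogenes. Ftl1-ps1, Gm15590 and Gm10252 are listed at 7.17 to 150.5 FPKM in the 9 libraries, and how the authors placed fragments that match several genes is not given in the sources used here. The matching share is 1.59% for Fth1 and 0 for Slc40a1 and Tfrc.

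Ncoa4, which carries ferritin to the lysosome, had FPKM of 26.5, 15.1 and 19.5 in Control #1 to #3 and 15.9, 14.8 and 1.66 in IL-4 #1 to #3. Its log2 fold change of −1.41 (SE 0.754, limma adjusted p = 0.217) became −0.37 (adjusted p = 0.196) without IL-4 #3, so that library carried most of it. Of the stretches of Ncoa4, 17.9% are shared with Gm6768. Hmox1, which frees iron from heme, had FPKM of 384.7, 569.2 and 507.4 in Control #1 to #3 and 390.0, 378.7 and 361.6 in IL-4 #1 to #3. Only Control #1 reached the IL-4 range, and the log2 fold change was −0.35 (SE 0.156, limma adjusted p = 0.138).

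Of the sensors, Aco1 (IRP1, the cytosolic aconitase) had FPKM of 22.8, 20.4 and 22.8 in Control #1 to #3 and 38.3, 36.4 and 24.6 in IL-4 #1 to #3. The groups did not overlap. The log2 fold change of 0.56 (SE 0.169, limma adjusted p = 0.043) passed on p alone, and with the mouse number as a replicate block the adjusted p was 0.059. The pass held in 1 of 9 fits that leave out a library, that without IL-4 #3 (0.76, adjusted p = 0.000255). It was lost without any Control library (adjusted p of 0.0947 to 0.13), without IL-4 #1 or #2 (0.0976 and 0.121) and without any IL-6 library (0.0716 to 0.0755). Ireb2 (IRP2) had FPKM of 10.2, 5.62 and 7.27 in Control #1 to #3 and 9.88, 8.89 and 3.62 in IL-4 #1 to #3. The groups overlapped, and the log2 fold change was −0.13 (SE 0.374, adjusted p = 0.827), with a sign that turned without IL-4 #3 (0.32, adjusted p = 0.297).

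The Mϕ markers moved with these falls. Their summed FPKM was 16662 to 18966 in Control and 6021 to 7062 in IL-4 libraries, with 5 of the 8 called lower. Lyz2 made up most of that sum (mean FPKM 14577 in Control and 5053 in IL-4), while Itgam had a higher mean FPKM in IL-4 (60.1) than in Control (35.3) libraries. Granulocyte markers summed to 5008 to 8896 in Control and 2233 to 4163 in IL-4 libraries, with 10 of 12 called lower. The part of either shift in the falls of Slc40a1, Slc11a1, Slc11a2 and Fth1 was not tested.

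**Figure D2:**
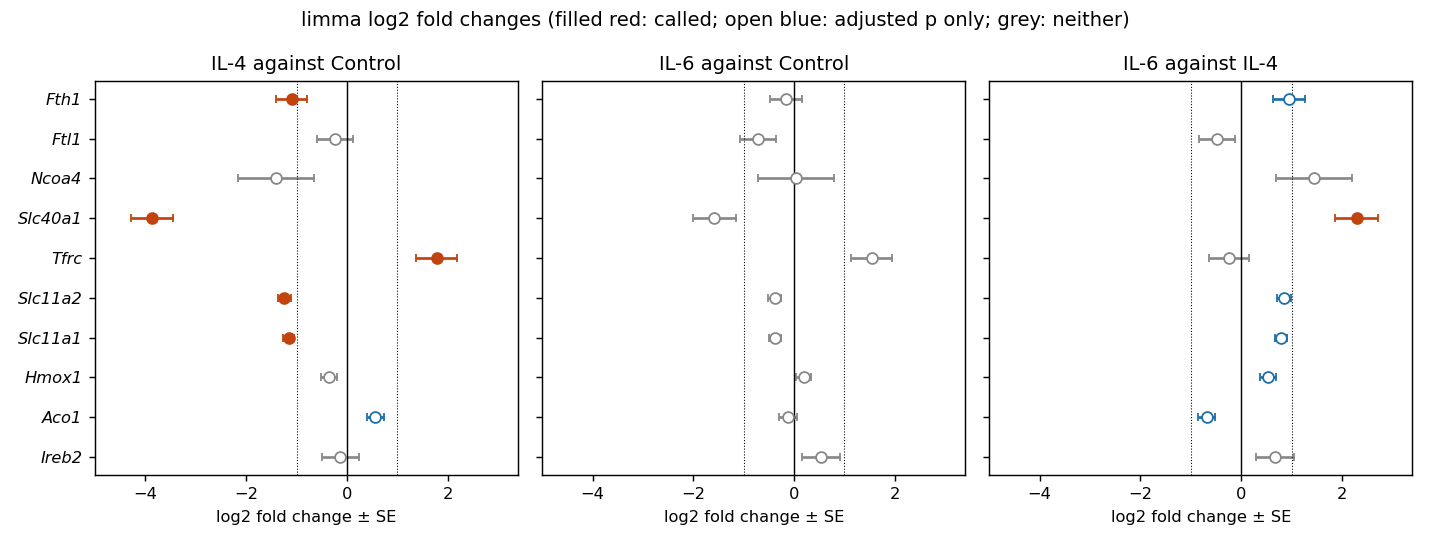
Log2 fold change (x axes) with its standard error for the 10 genes in each of the 3 comparisons, from limma over 9 libraries, with dotted lines at the 2-fold limit. Filled red points passed both limits, open blue points the adjusted p only: Slc40a1 is the leftmost gene against Control under IL-4 (−3.87), and no gene is filled for IL-6 against Control.

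The third IL-4 library differed from the other IL-4 libraries in a way that followed gene length among the members too. Its log2 FPKM lay 1.12 above their mean for Fth1, with 866 bases of exon, and 1.31 above for Ftl1, with 1340 bases. The lengths of Fth1 and Tfrc were inferred from the steps of their FPKM values and not taken from the annotation. It lay near their mean for Hmox1, at −0.09 with 1751 bases, and for Slc11a1, at −0.28 with 3705 bases. For Tfrc, with 6185 bases, the difference was −1.61, and for Slc40a1, with 9000 bases, −1.55. Ncoa4, with 9365 bases, had −3.13, while Slc11a2, with 6354 bases, had only −0.35. The member differences exceeded the medians of their length classes in size by over 0.1 for Fth1, Ftl1, Tfrc, Slc40a1, Ncoa4, Aco1 and Ireb2.

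**Figure D3:**
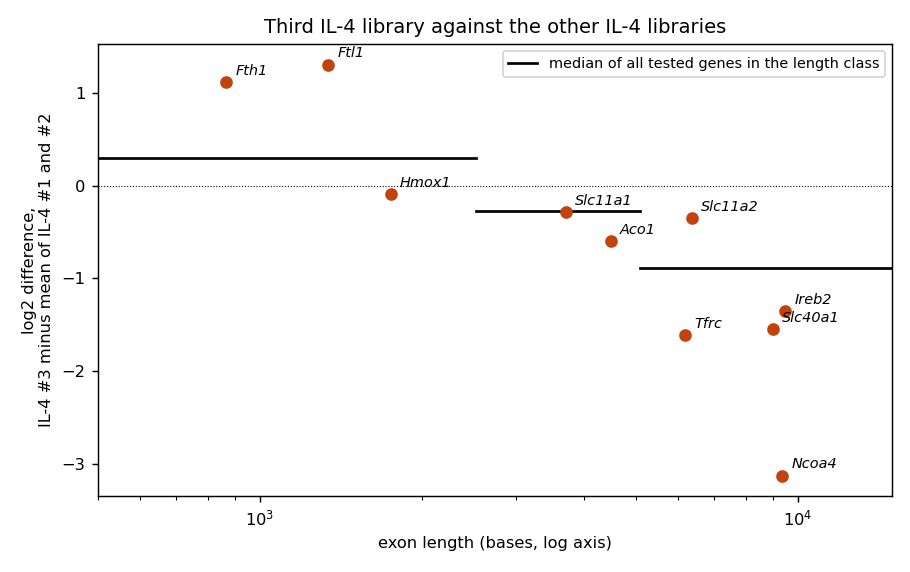
Log2 difference of IL-4 #3 from the mean of IL-4 #1 and #2 (y axis, on the log2(FPKM + 0.1) scale) against exon length in bases (log x axis) for the 10 genes. The lengths of Fth1 and Tfrc are inferred from their FPKM values. Black lines give the median of all tested genes in 3 length classes, 0.30, −0.27 and −0.89, and the ferritin genes lie above them while Ncoa4, at −3.13, lies lowest.

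In IL-6 Mϕs limma called none of the 10 members against Control and none passed an adjusted p under 0.05, while 5.38% of all tested genes were called (3.49% higher and 1.89% lower) and 8.4% passed on p alone. Limma voom on the recovered fragments called 1 member, Slc40a1, beside 675 of the 12824 tested genes. The median log2 fold change of the members was −0.14, beside 0.00 over all tested genes.

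The exporter and the transferrin receptor had the 2 largest differences. The FPKM of Slc40a1 was 44.3, 44.8 and 44.3 in IL-6 #1 to #3, a mean of 33.1% of Control with no overlap between the groups. Its log2 fold change was −1.58 (SE 0.422, limma adjusted p = 0.0598). Tfrc had FPKM of 197.8, 205.6 and 181.3 in IL-6 #1 to #3, 2.89-fold the Control mean and again with no overlap. The summed cell cycle list lay above each Control library here too, with summed FPKM of 77.6 to 82.3 and a median log2 fold change of 0.55. Of its 12 genes 0 were called, with Mki67 at 233.1% of the Control mean but Cdk1 at 96.9% and Mcm2 at 84.4%. The part of this list in the level of Tfrc was not tested. Tfrc had a log2 fold change of 1.54 (SE 0.402, limma adjusted p = 0.0547). In this fit all groups share an estimate of the spread, to which IL-4 #3 contributes. Fitted on Control and IL-6 libraries alone, the adjusted p was 0.00042 for Slc40a1 and 0.000336 for Tfrc. It was 0.00171 and 0.000231 without IL-4 #3, and 0.00149 and 0.00529 after removal of the gene-length trend. Each gene passed in only 2 of the 9 fits that leave out a library, with an adjusted p of up to 0.172 for Slc40a1 and 0.188 for Tfrc. When the set of libraries was included, which can be estimated only from IL-4 #1 against IL-4 #2 and #3, the log2 fold change of Slc40a1 was −0.15 (adjusted p = 0.844) and that of Tfrc 2.64 (adjusted p = 0.0895). That estimate includes IL-4 #3, whose log2 FPKM differed from the mean of IL-4 #1 and #2 by −1.55 for Slc40a1 and −1.61 for Tfrc. The set term therefore cannot be told apart from what sets IL-4 #3 apart. Since all Control and all IL-6 libraries lie in different sets, the differences of both genes under IL-6 cannot be told apart from the set.

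The other transporters showed small, even differences. Slc11a1 had FPKM of 173.6, 171.1 and 172.2 in IL-6 #1 to #3, 77.1% of the Control mean, with a log2 fold change of −0.38 (SE 0.114, limma adjusted p = 0.0914). Slc11a2 had 17.5, 15.8 and 15.8, 76.6% of the Control mean, with a log2 fold change of −0.38 (SE 0.131, adjusted p = 0.131). Neither group overlapped with Control. Among the 9 fits that leave out a library, only that without IL-4 #3 passed on p, at 0.00568 for Slc11a1 and 0.0109 for Slc11a2. In the others the adjusted p reached 0.272 and 0.344.

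Among the storage genes, Fth1 had FPKM of 17007, 18440 and 17473 in IL-6 #1 to #3, within the Control range (log2 fold change −0.16, SE 0.317, limma adjusted p = 0.824). Ftl1 had 5432, 6343 and 6019, below each Control library, with a log2 fold change of −0.71 (SE 0.355, adjusted p = 0.307). Of the 9 fits that leave out a library, Ftl1 passed on p only without IL-4 #3 (0.0199), and the adjusted p of the others reached 0.677. Ncoa4, with 21.4, 19.8 and 20.04, lay within the Control range (0.04, SE 0.754). Hmox1 had 520.7, 569.8 and 556.0, with a log2 fold change of 0.19 (SE 0.156, adjusted p = 0.56). Aco1, with 20.4, 20.3 and 19.9, overlapped with Control (−0.12, SE 0.169, adjusted p = 0.744), as did Ireb2, with 11.8, 10.2 and 10.9 (0.54, SE 0.374, adjusted p = 0.485).

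Between the cytokines, Slc40a1 was the only member called. It was 4.25-fold higher in IL-6 than in IL-4 Mϕs, with a log2 fold change of 2.29 (SE 0.422, limma adjusted p = 0.0042), and was called in each of the 9 fits that leave out a library. Of all tested genes 20.4% were called, 13.6% higher and 6.82% lower in IL-6. On the adjusted p alone 6 members passed, 5 higher and 1 lower, against 34.1% of all genes. The 4 other higher members were Slc11a2 (0.85, SE 0.131, adjusted p = 0.00159), Slc11a1 (0.79, SE 0.114, adjusted p = 0.00118), Fth1 (0.95, SE 0.317, adjusted p = 0.0499) and Hmox1 (0.54, SE 0.156, adjusted p = 0.0278). Aco1 was lower (−0.68, SE 0.169, adjusted p = 0.016). The groups did not overlap in these 6, nor in Ncoa4 and Ireb2, which did not pass. Lack of overlap thus does not mark the members that passed, and its share over all genes was not counted. Slc11a1 and Slc11a2 passed on p in each of the 9 fits that leave out a library. Fth1 passed in 1 of them, that without IL-4 #3 (1.32, adjusted p = 0.001), and had an adjusted p of 0.0553 to 0.127 in the others. Hmox1 passed in 4, and was lost without Control #3, IL-4 #2 or any IL-6 library (adjusted p of 0.0503 to 0.0944). Aco1 passed in 5, and was lost without IL-4 #2 or any IL-6 library (adjusted p of 0.0511 to 0.0558). The median log2 fold change of the members was 0.73, beside 0.22 over all genes.

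The remaining 4 members did not pass. Tfrc had a log2 fold change of −0.24 (SE 0.402, limma adjusted p = 0.646) and overlapping groups. Without IL-4 #3 it was −0.78 (adjusted p = 0.00406), the only pass on p among the 9 fits that leave out a library. Ftl1 had −0.48 (SE 0.355, adjusted p = 0.307), Ncoa4 1.45 (SE 0.754, adjusted p = 0.161) and Ireb2 0.67 (SE 0.374, adjusted p = 0.187). Without IL-4 #3 these were −0.04 (adjusted p = 0.886), 0.41 (adjusted p = 0.14) and 0.22 (adjusted p = 0.442), each nearer 0 than with that library. Within the second set of libraries, the mean FPKM of Slc40a1 in IL-6 was 6.42-fold that of IL-4 #2 and #3, and that of Slc11a1 1.80-fold.

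Ratios of 2 genes within a library do not depend on how libraries are scaled, and they separated the conditions with little spread. The ratio of Ftl1 to Fth1 FPKM, light to heavy ferritin subunit, was 0.496, 0.501 and 0.484 in Control #1 to #3. In IL-4 #1 to #3 it was 0.886, 0.835 and 0.986, and in IL-6 #1 to #3 it was 0.319, 0.344 and 0.345. The ratio was thus highest in IL-4 and lowest in IL-6 Mϕs, with no overlap, and IL-4 #3, which stood apart in both genes, lay near the other IL-4 libraries. On the log2 scale the IL-4 libraries differed from Control by 0.87, the IL-6 libraries by −0.56, and IL-6 from IL-4 by −1.42, each with p = 0.1 in a two-sided exact permutation test, the smallest p that 3 against 3 libraries allow. Both ferritin transcripts are short, and the uncertain share of Ftl1 fragments applies to this ratio as well. Fth1 and Ftl1 together took 2.36% to 3.65% of fragments in Control, 1.33%, 1.53% and 3.35% in IL-4 #1 to #3 and 2.201% to 2.447% in IL-6 libraries.

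The ratio of Tfrc to Slc40a1 FPKM, importer to exporter, was 0.458, 0.496 and 0.564 in Control #1 to #3. It was 21.9, 30.5 and 25.3 in IL-4 #1 to #3, and 4.47, 4.59 and 4.09 in IL-6 #1 to #3. The 3 conditions did not overlap: the exporter transcript exceeded the importer in Control Mϕs and the importer exceeded the exporter in both treated conditions. The log2 difference from Control was 5.67 for IL-4, a 50.9-fold ratio, and 3.12 for IL-6, an 8.69-fold ratio. IL-6 differed from IL-4 by −2.55. Each of the 3 comparisons gave p = 0.1 in the exact permutation test, again the smallest p possible. IL-4 #1, which belongs to the same set as the Control libraries, had a ratio of 21.9, and IL-4 #2 and #3, of the same set as the IL-6 libraries, had 30.5 and 25.3.

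**Figure D4:**
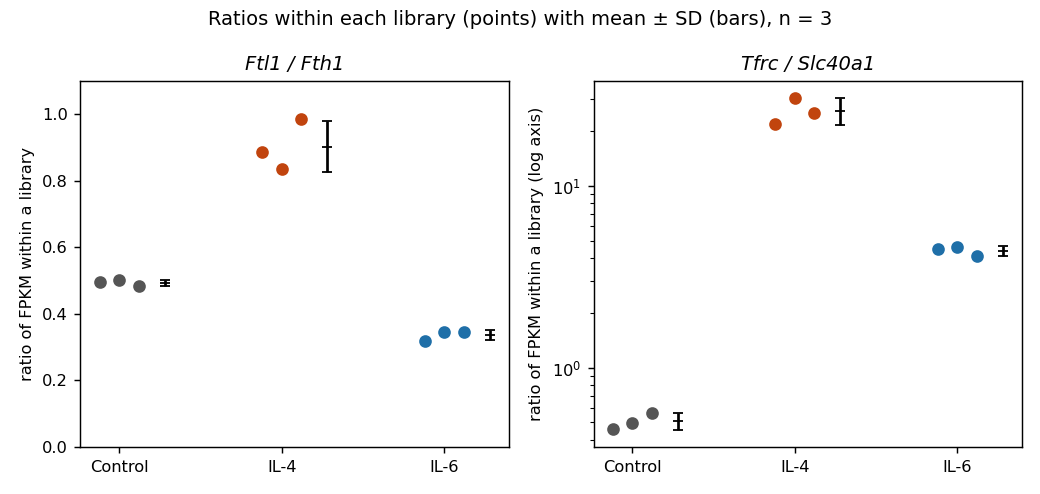
Ratio of Ftl1 to Fth1 FPKM (left, linear axis from 0) and of Tfrc to Slc40a1 FPKM (right, log axis) in each library, with mean ± SD over 3 libraries beside the points. Control, IL-4 and IL-6 do not overlap in either ratio, with means of 0.494, 0.903 and 0.336 on the left and 0.506, 25.9 and 4.39 on the right.

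The spread within groups differed between the conditions. In IL-6 libraries the coefficient of variation of FPKM ran up to 7.79% (Ftl1). It was 0.638% for Slc40a1 and 1.19% for Aco1, below the 0.874% and 1.83% that counting error alone gives at these numbers of fragments, so no precision beyond counting error can be read from them. In Control libraries it ran from 1.66% (Slc11a1) to 30.3% (Ireb2), and in IL-4 libraries from 3.79% (Hmox1) to 73.5% (Ncoa4).

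Other genes of iron and heme handling were taken from lists of 70 genes, of which 54 passed the filter. Against Control, 11 were called in IL-4 Mϕs (4 higher, 7 lower), and 5 in IL-6 Mϕs (4 higher, 1 lower). Between IL-6 and IL-4, 15 were called, 10 higher and 5 lower in IL-6. These are 20.4%, 9.26% and 27.8% of the 54, beside 13.9%, 5.38% and 20.4% of all tested genes. The medians over the 54 genes were −0.18, −0.04 and 0.04 in these 3 comparisons, beside −0.20, 0.00 and 0.22 over all tested genes.

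For iron uptake, 8 of 14 listed genes were tested and 4 were called under IL-4, 2 higher and 2 lower. Of all tested genes 13.9% were called in this comparison, 5.02% higher and 8.89% lower. Steap3, which reduces iron in the endosome for export by the transporter of Slc11a2, rose from a mean FPKM of 5.86 to 20.3 (log2 fold change 1.75, SE 0.19, limma adjusted p = 0.000386). Slc39a14 (ZIP14), an importer of iron not bound to transferrin, rose in IL-4 (1.18, adjusted p = 0.0035) and in IL-6 Mϕs (2.06, adjusted p = 0.000622). Lcn2, which captures bacterial iron chelators, fell under IL-4 (−1.54, adjusted p = 0.00264), as did the iron-binding Ltf (−1.48, adjusted p = 0.00201). Ltf is also on the granulocyte list above, which moved the same way. Trf, the transferrin gene, fell from a mean FPKM of 104.1 to 42.7 under IL-6 (−1.31, SE 0.266, adjusted p = 0.0212), a call lost without Control #2, Control #3, IL-6 #1 or IL-6 #2 (adjusted p of 0.0706 to 0.0905). When the set was included, the adjusted p of Trf was 0.0913.

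The iron chaperones Pcbp1 and Pcbp2 had FPKM of 92.6 to 121.8 and of 70.4 to 103.4 over the 9 libraries. For export and systemic control, only Cp of 7 listed genes was tested. Cp, the ferroxidase ceruloplasmin that works beside ferroportin, had FPKM of 2.37, 1.89 and 1.74 in Control #1 to #3 and 0.177, 0.0966 and 0.107 in IL-4 #1 to #3. It fell with Slc40a1 under IL-4 (log2 fold change −3.21, SE 0.217, limma adjusted p = 2.82e-05) and had 2.07, 1.88 and 2.09 FPKM in IL-6 #1 to #3. Hamp, which encodes the hormone hepcidin, is supported by at most 6 fragments in a library, and Ftmt, the mitochondrial ferritin, is listed at 0 in all 9 libraries.

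For heme and hemoglobin, 10 of 12 listed genes were tested. The hemoglobin scavenger receptor Cd163 fell under IL-4 (log2 fold change −2.38, limma adjusted p = 0.00236). Hp, the haptoglobin gene whose product binds free hemoglobin, fell under IL-4 (−2.05, adjusted p = 0.00173) and rose under IL-6 (2.72, SE 0.297, adjusted p = 0.00127). The Control libraries had 24.7 to 43.4 FPKM of Hp, the IL-4 libraries 6.49 to 13.0 and the IL-6 libraries 223.9 to 243.9. When the set was included, the rise of Hp under IL-6 was 2.17 (adjusted p = 0.101). The set term rests on IL-4 #1 against IL-4 #2 and #3, where Hp had 6.5, 7.0 and 13.0 FPKM. For Hp that term thus leans on IL-4 #3. Of the 11 heme synthesis genes, only Alas1, the first enzyme of the pathway, was called. Of all tested genes, 13.9% were called under IL-4, 5.38% under IL-6 and 20.4% between the cytokines. Alas1 rose under IL-4 (1.09, SE 0.136, adjusted p = 0.000747). Its level was lower in IL-6 than in IL-4 (−1.05, adjusted p = 0.000665), a difference just under 2-fold without IL-4 #1 or #2 (−0.98 and −0.99).

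For mitochondria, 15 genes were tested. Slc25a37 (mitoferrin-1), which carries iron into mitochondria, fell under IL-4 (log2 fold change −1.82, SE 0.269, limma adjusted p = 0.00197). It was higher in IL-6 than in IL-4 Mϕs (2.02, adjusted p = 0.000836). Glrx5, a glutaredoxin of iron-sulfur cluster assembly, was lower in IL-6 than in IL-4 Mϕs (−1.14, adjusted p = 0.0426). The call of Glrx5 was kept only without IL-4 #1 or #2 among the 9 fits that leave out a library. It was lost without any Control library (adjusted p of 0.0513 to 0.0686), without any IL-6 library (0.0821 to 0.136) and, on its fold, without IL-4 #3 (−0.71).

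Of the 7 regulators, Spic, a transcription factor of the Mϕs that recycle iron, fell furthest under IL-4. Its FPKM was 12.9, 16.3 and 13.4 in Control #1 to #3, 0.663, 0.868 and 0.698 in IL-4 #1 to #3, and 15.8, 19.1 and 19.1 in IL-6 #1 to #3. The log2 fold change under IL-4 was −4.09 (SE 0.158, limma adjusted p = 2.44e-06). Epas1 (HIF-2α) rose under IL-4 (2.39, adjusted p = 0.000697) and IL-6 (1.86, adjusted p = 0.00667). Fbxl5, the iron-sensing subunit of the ligase that degrades IRP2, rose under IL-6 (1.34, SE 0.271, adjusted p = 0.0204). That call was lost without Control #2, Control #3, IL-6 #1, IL-6 #2 or IL-6 #3 (adjusted p of 0.0676 to 0.09). When the set was included, neither Epas1 (2.28, adjusted p = 0.0977) nor Fbxl5 (1.79, adjusted p = 0.134) passed for IL-6, and Slc39a14 did (2.14, adjusted p = 0.0458). In IL-4 #1 to #3, Epas1 had 9.64, 10.96 and 4.73 FPKM, and Fbxl5 had 5.25, 5.38 and 2.69. For both genes the set term thus leans on IL-4 #3. Nfe2l2 (NRF2), an activator of ferritin and Hmox1 transcription, was higher in IL-6 than in IL-4 Mϕs (1.43, SE 0.249, adjusted p = 0.00328).

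Set against IL-4, IL-6 Mϕs had more transcript of Hp (log2 fold change 4.77, limma adjusted p = 1.46e-05), Spic (4.43, adjusted p = 1.05e-06), Cp (3.23, adjusted p = 1.83e-05) and Cd163 (2.53, adjusted p = 0.00124). They also had more of Lcn2 (2.18, adjusted p = 0.000314), Ltf (2.12, adjusted p = 0.000224) and Fbxl5 (1.69, adjusted p = 0.00207). Steap3 (−2.28, adjusted p = 5.99e-05) and Trf (−1.28, adjusted p = 0.00725) were lower. In this comparison 11 of 12 granulocyte markers and 5 of 8 Mϕ markers were called higher in IL-6, and their part in these differences was not tested.

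**Figure D5:**
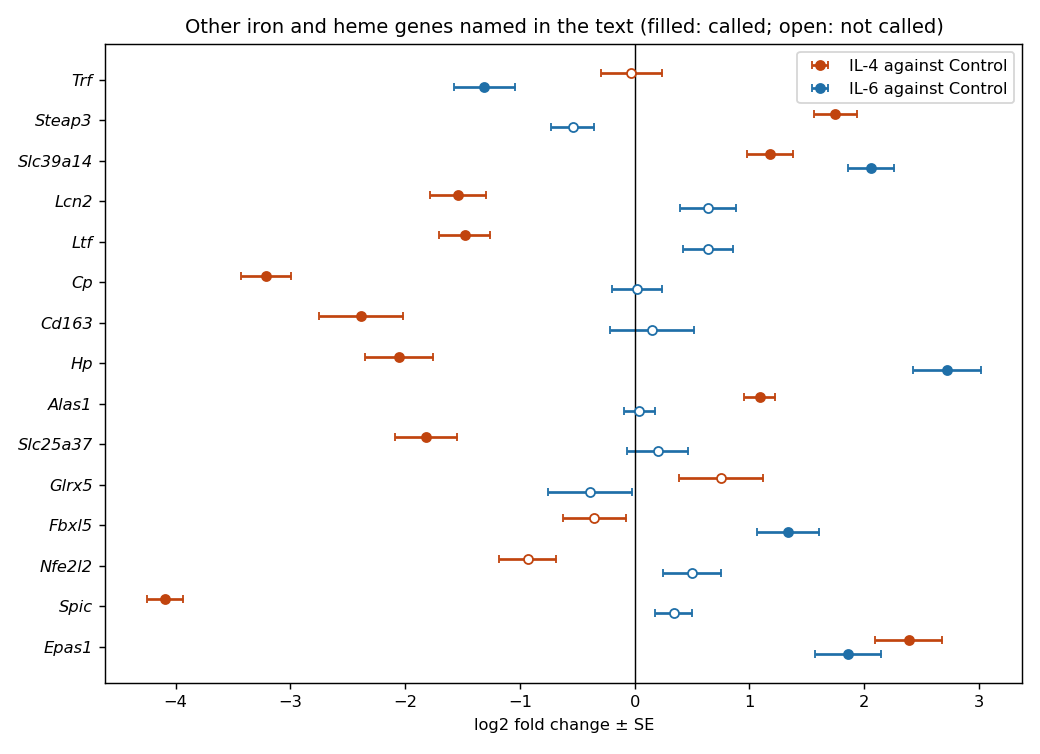
Log2 fold change with its standard error (x axis) of the other iron and heme genes named in the text, for IL-4 (red) and IL-6 (blue) against Control, filled where called. Spic (−4.09) and Cp (−3.21) lie furthest left under IL-4, and Hp has called changes in opposite directions, −2.05 under IL-4 and 2.72 under IL-6.

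Genes with the most similar pattern over the 9 libraries are given as a description, since points share libraries and the length trend. For Slc40a1 these were Nxpe1-ps (Pearson r 0.995), Sesn1 (0.995) and Gng2 (0.994), for Tfrc Tnfrsf23 (0.989), Pla2g4a (0.985) and Snx10 (0.983). For Fth1 they were Fcer1g (0.987), Mtfr1l (0.984) and Mblac1 (0.981), and for Hmox1 Flot2 (0.974), Cebpe (0.972) and Ms4a3 (0.967). Sesn1 had a mean FPKM of 70.1 (Control), 15.4 (IL-4) and 35.3 (IL-6), and that of Fcer1g was 902.3, 496.4 and 811.5.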

How the data were processed

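RNA-seq of BM-derived Mϕs gave 9 libraries in 3 conditions. The authors deposited FPKM per gene, unfiltered by any stated rule, and the methods name STAR 2.4.2a, Cufflinks 2.2.1, GRCm38 and GENCODE M5. Of 53379 gene identifiers, 94.8% matched GENCODE M21 with their version, and Fth1 and Tfrc matched without it. Their exon lengths, 866 and 6185 bases, were inferred as the smallest that made the values of all libraries whole fragments. All 92602 low values tested were whole multiples of 1 fragment within 0.05, which gave each library's total (29988160 to 39909571) and the fragments behind each value. Counts of 3 fragments or fewer were taken as the floor, for counting error only. The program that placed and counted fragments is not settled by the values.

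Values were fitted as log2(FPKM + 0.1) with limma 3.58.1 in R 4.3.3 over 12824 genes, those whose FPKM averaged 0.5 or more. All 9 libraries entered a model of 3 groups with trend and robust moderation, and p-values were adjusted by Benjamini-Hochberg over all tested genes. Called means an adjusted p below 0.05 with a change of 1 or more on the log2 scale. Folds and percentages are of mean FPKM and errors are SD. The fit was tested on simulated data. The members and lists were chosen with earlier results of these data known. Named were all 10 members, called genes of the other lists without overlap (up to 4 per list and comparison; 1 such gene is not reported here) and, for Fth1, Tfrc, Slc40a1 and Hmox1, the 3 genes of highest r. Hjv was matched by its older symbol Hfe2. UTR elements were searched in GENCODE M21.

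The numbers were read as the same mouse in each condition, from the column names and the study's heatmap. The main fit and the permutation tests of ratios did not use this pairing. Deviations of same-numbered libraries from their group means correlated at 0.521, −0.415 and 0.0777 (IL-4 and Control), 0.408, 0.201 and 0.166 (IL-6 and Control) and 0.281, −0.0612 and 0.153 (IL-6 and IL-4). Figures were drawn with Python 3.11.15 and matplotlib 3.10.9. Other assays of the study were not analysed here. Alternatives were a pseudocount of 1 or 0.01, other filters and scalings, the mouse as a block, the set of libraries as a term, limma voom, the groups compared alone and leaving out each library. Removal of each library's lowess trend with gene length was chosen after seeing the data.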

Additional observations from a re-analysis of the deposited data

How the results depend on the processing

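The called members under IL-4 (5) came to 3 with rescaling by the median ratio, 3 with the groups compared alone, 3 with the gene-length trend removed and 3 to 5 without a library. Of all 12824 tested genes, 1708, 1356, 1750 and 1450 to 2150 were called in these settings, against 1784. Under IL-6 (0 against Control) there were 2 with a pseudocount of 1, 2 with rescaling, 1 with quantile normalization, 1 with limma voom, 2 with the groups compared alone, 2 with the gene-length trend removed and 0 to 2 without a library, with Slc40a1 the only member where the count was 1 and Tfrc the other where it was 2. In the same order, 531, 707, 808, 675, 985, 819 and 387 to 1001 of all 12824 tested genes were called, against 690. Between IL-6 and IL-4 (1) there were 2 with quantile normalization, 2 with the gene-length trend removed, 6 on the adjusted p alone and 1 to 2 without a library. Of all tested genes these took 2565, 2515, 4375 and 2124 to 3274, against 2613. Of the wider lists, the adjusted p alone passed 17 genes under IL-4 (11 called) and 23 between the cytokines (15 called), and the set of libraries as a term left 1 of 5 under IL-6 (Slc39a14), where leaving out a library gave 3 to 6. Of all tested genes, 24.8% and 34.1% passed on the adjusted p alone, and the set term took the calls under IL-6 from 690 to 187. With the mouse as a replicate block the counts were 5, 0 and 1 members and 11, 5 and 15 wider genes, against 1788, 656 and 2734 of all genes. Beside Aco1 the block changed no other member's side of the adjusted p. No called member changed sign. Values that were not called turned sign as follows: Fth1 under IL-6 to 0.01 and Ncoa4 to −0.16 with the gene-length trend removed, Ncoa4 under IL-6 without Control #2 (range without a library −0.16 to 0.25), Ftl1 under IL-4 without IL-4 #1 (−0.67 to 0.03), Aco1 under IL-6 to 0.24 with the set as a term, Tfrc between the cytokines to 0.00 with quantile normalization and to 0.13 with the set as a term or without IL-4 #1 (−0.78 to 0.13), and Ireb2 under IL-4 to 0.07 with rescaling, 0.04 with quantile normalization, 0.40 with the set as a term, 0.10 and 0.32 without Control #1 or IL-4 #3 (−0.39 to 0.32), and 0.21 with the gene-length trend removed. Of 630 values of members under alternatives, 578 kept direction and call. Rescaling by the median ratio moved the median of all genes under IL-4 from −0.20 to −0.01 and the calls from 644 higher and 1140 lower to 834 and 874, and between IL-6 and IL-4 from 1738 and 875 to 1398 and 1165. Limma voom on the recovered fragments called 1897, 675 and 2692 of all genes, against 1784, 690 and 2613. With a pseudocount of 1, Slc39a14 under IL-4 (0.77) missed the fold. The cause of these shifts was not tested. Depth does not limit the members, which rest on 621 fragments or more.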
